A study of Mus musculus with 16 samples.

Results

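The region described here is mouse chromosome 15 without the stretch from 59 to 64 Mb, which holds the proto-oncogene Myc. Its members are the array probes placed on chromosome 15 of the genome build mm8 outside that stretch, 8836 of the 233212 probes with a chromosome position. Of these, 4304 lie before 59 Mb and 4532 after 64 Mb. The proximal part, from 3 to 13 Mb, holds 952 of them, and the distal part, from 78 Mb to the end, holds 3155. The members were chosen by position alone, but the region itself was chosen with earlier results of these data known.

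The study profiled mouse tumour lines that grow as transplants in mice of their strain of origin, called syngeneic models. Genomic DNA of 1 culture of each of 16 lines was compared with a commercial mouse genomic DNA (Merck) on 2-colour comparative genomic hybridisation arrays, with the line in Cy5 and the commercial DNA in Cy3 on every array. No line carries an engineered change or treatment in the labels, and the strain of the commercial DNA is not given there. The lines of Balb/C background are CT26 (colon), 4T1 (breast) and Renca (renal). P815 (mast cells) is DBA/2. The lines of C57BI6 background, spelled as in the labels, are MC38 (colorectal), LL2 (lung), Hepa1-6 (liver), PAN02 (pancreas), EL4 (blood), ID8 (ovary), TRAMPC1 and TRAMPC2 (prostate) and B16 (melanoma). B16 was measured as B16F0 ECAC, B16F0 ATCC, B16F10 NCI and B16F10 ATCC. The 4 B16 arrays and the 2 TRAMPC arrays count as 1 family each, which leaves 12 families.

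Tumour cells often carry whole extra chromosomes, which raise every gene of the chromosome alike, or gains and losses of arms and smaller pieces, which end at breakpoints. Mouse chromosome 15 is best known in tumours for Myc, which drives cell growth and division, and extra copies of the chromosome are a classic finding in mouse T-cell lymphomas. Outside Myc it also carries receptor genes of the growth hormone, prolactin and cytokine families. Array hybridisation reads relative dose: a log2 ratio above 0 means more DNA of a probe in the line than in the commercial DNA, relative to the median of all autosomal probes of the same array. It is not a copy number, because the ploidy of the line is not measured.

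Each array is a single culture. The errors of single arrays below are standard errors of the mean over probes, also where they stand beside a median. They treat probes as independent and do not cover the spread between cultures. Probe-to-probe noise, as an SD in log2, was 0.22 on the quietest array and 0.41 on the noisiest. On each array, the line signal was well above background for at least 99.85% of the chromosome 15 probes. The arrays were scanned in 2 batches, per the file headers, of 6 and 10 arrays. CT26, 4T1 and Renca were scanned in the first, together with Hepa1-6, ID8 and B16F10 NCI. The arrays labelled Hepa1-6 and PAN02 had closely similar profiles on chromosome 15, with a Pearson correlation of 0.92 over 96 bins of 1 Mb, the highest of 113 pairs of different families. The tests over families and the counts of whole and partial gains were therefore repeated with these arrays as 1 family.

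Chromosome 15 was high in nearly all families. Its median log2 ratio was above 0 in 11 of 12 families, and the mean over families was 0.28 ± 0.19 (SD, n = 12). The count of families is not particular to chromosome 15. Chromosome 17 was also above 0 in 11 of 12 families, at a mean of 0.15, and chromosome 11 in 10, at 0.09. ID8 was the highest at 0.64 ± 0.0042 (SE over 8833 probes), a ratio of 1.56 to the reference. With normexp background correction, which lowered some arrays and raised others, ID8 stood at 0.28, below Renca (0.49), Hepa1-6 (0.39), CT26 (0.31) and MC38 (0.29). In the main processing CT26 came next at 0.44, followed by TRAMPC at 0.39 (0.37 in TRAMPC1 and 0.42 in TRAMPC2). Renca stood at 0.39, PAN02 at 0.38 and Hepa1-6 at 0.35. LL2 stood at 0.23, MC38 at 0.22 and EL4 at 0.20. The B16 mean was 0.16, with B16F0 ATCC at 0.23, B16F10 NCI at 0.23, B16F10 ATCC at 0.20 and B16F0 ECAC at -0.04. The lowest families were 4T1 at 0.09 and P815 at -0.07. Neighbours in this order, such as TRAMPC, Renca and PAN02, lay closer together than the 2 TRAMPC arrays lay to each other, so their order is not settled.

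The mean level differed from 0 (two-sided exact sign-flip permutation test over families, p = 0.00098, adjusted p = 0.0024 over 5 tests). Chromosome 15 was chosen as the region with earlier results of these data known. The p-values here and below do not account for that choice. Against the other 18 autosomes of the same array, chromosome 15 was higher by 0.30 ± 0.19 (SD, n = 12), again in 11 of 12 families (exact p = 0.00098, adjusted p = 0.0024). With Hepa1-6 and PAN02 as 1 family these means were 0.28 and 0.29, positive in 10 of 11 families (exact p = 0.0020 for each, adjusted p = 0.0049). Chromosome 15 had the highest mean over families of the 19 autosomes, ahead of chromosome 17 at 0.15, chromosome 6 at 0.14 and chromosome 19 at 0.14. By family means, chromosome 15 ranked 1, 2 or 3 among the 19 autosomes in 10 of 12 families and 1 in 3 of them, namely CT26, TRAMPC and EL4. The exceptions were 4T1, where it ranked 8, and P815, where it ranked 13. By single arrays of the multi-array families, it ranked 12 in B16F0 ECAC, 4 in B16F10 NCI, 3 in B16F0 ATCC and B16F10 ATCC, 2 in TRAMPC1 and 1 in TRAMPC2. The mean was 0.36 within the first scan batch and 0.21 within the second. Neither passed after adjustment. Over 6 families the former had an exact p of 0.031, the smallest possible there, and an adjusted p of 0.078. The latter had an adjusted p of 0.062 over 7 families (exact test). All arrays share the same commercial DNA, so a component of that DNA common to all arrays cannot be told apart from a change in the lines.

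**Figure D1:**
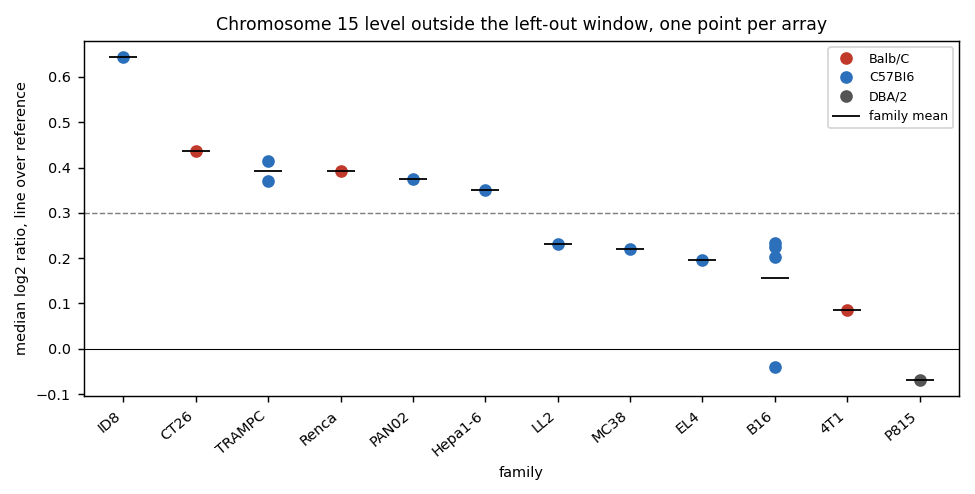
Median log2 ratio of line over reference on chromosome 15 outside the left-out window, with 1 point per array, grouped by family and coloured by strain; short bars are family means and the dashed line is the gain threshold of 0.3. Only P815 and the array B16F0 ECAC lie below 0, and ID8 is highest at 0.64.

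The next question was whether the whole chromosome or only pieces of it were raised. Each profile was divided into segments of even level by a change point search, and a segment with a mean of at least 0.3 was called gained. A family counted as a whole-chromosome gain where at least 90% of the probes lay in gained segments and as a partial gain from 10% upward. By this rule 4 of 12 families had a whole gain (CT26, Hepa1-6, PAN02 and ID8), 6 a partial gain (TRAMPC, Renca, EL4, 4T1, B16 and MC38) and 2 none (LL2 and P815). The rule takes no account of gains elsewhere in the line. MC38 had 11.1% of its probes gained, against 19.5% on its other autosomes. B16 counted by a median of 20.4% over its arrays, against 13.5% to 16.2% elsewhere, and B16F0 ECAC and B16F10 ATCC had 0%. With Hepa1-6 and PAN02 as 1 family the whole gains numbered 3 and the partial gains 6. Several segments lay close to the threshold. Just inside were the last 30.92 Mb of Hepa1-6 at 0.30, a long segment of B16F0 ATCC at 0.30 and the first segment of TRAMPC2 at 0.31. Just outside were the first segment of TRAMPC1 at 0.297, the last segment of LL2 at 0.294 and the second segment of EL4 at 0.29. At thresholds of 0.2 and 0.5 whole gains numbered 6 and 1, with mode centring 5, and with normexp 2.

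**Figure D2:**
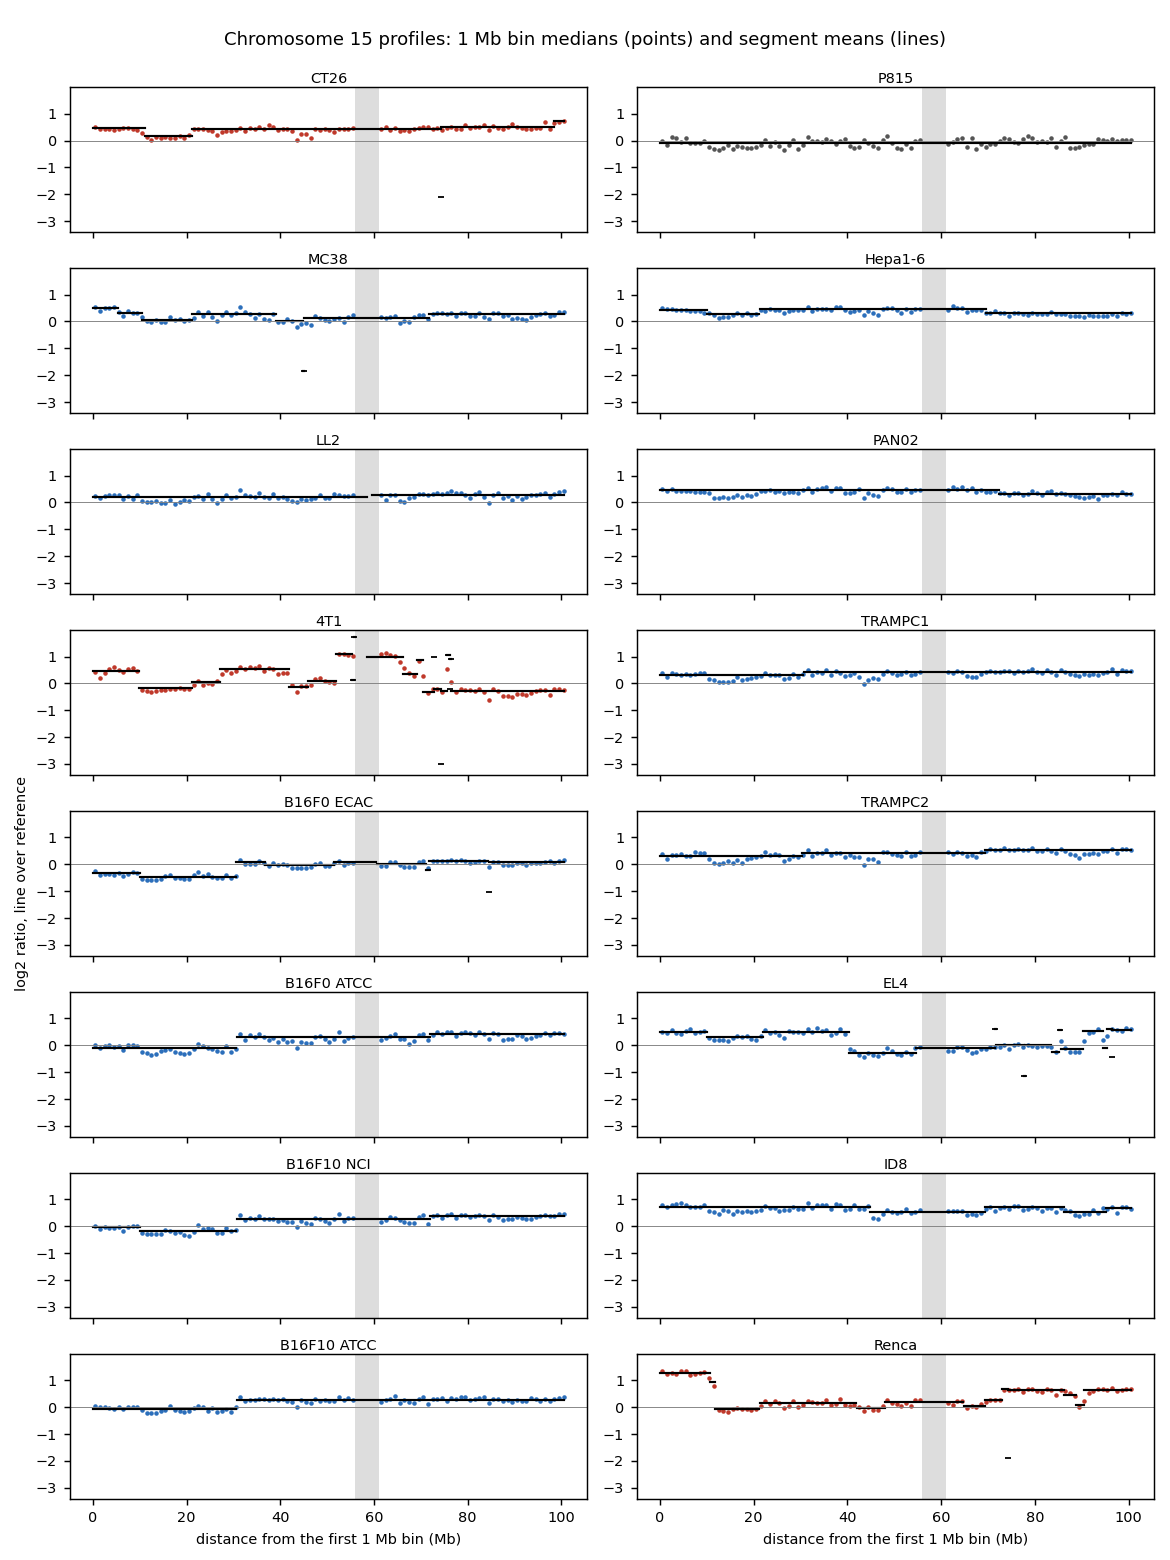
Profiles of chromosome 15 in the 16 arrays, as log2 ratio of line over reference against the distance in Mb from the first 1 Mb bin; points are bin medians coloured by strain (red Balb/C, blue C57BI6, grey DBA/2), black lines are means of segments over their probes outside the grey left-out window, drawn across it where a segment spans it and no narrower than a short bar. ID8, PAN02 and CT26 run high along the chromosome, 4T1 and EL4 alternate between levels, and the deep short segment of MC38 stands at -1.84.

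Among the whole gains, ID8 had 100% of its chromosome 15 probes in gained segments, against 14.0% of the probes on its other 18 autosomes, the background given in parentheses for the other lines. Its 5 segments ran between 0.53 and 0.72, and no step between them reached 0.3. PAN02 also had 100% (15.8% elsewhere), in 2 segments at 0.45 and 0.33. Hepa1-6 had 93.6% (7.69% elsewhere), and its 4 segments lay at 0.44, 0.29, 0.46 and 0.30. CT26 had 94.0% (8.54% elsewhere). Its lowest long segment, from 14061033 to 24057186, stood at 0.16 ± 0.017 (SE over 517 probes) and its highest, the last 2.02 Mb from 101463253, at 0.72 ± 0.017 (SE over 355 probes). These lines thus had different levels along a chromosome that was raised nearly throughout. The segments of CT26 at 0.16 and of Hepa1-6 at 0.29 lay largely in a dip, described below, that appeared in all 12 families. They hold nearly all the probes of CT26 and Hepa1-6 that were not in gained segments. That dip is therefore not particular to the lines with a whole gain.

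TRAMPC fell on both sides of the rule. TRAMPC2 had 100% of its probes in gained segments and TRAMPC1 74.1%, against 9.21% and 10.3% on the other autosomes, and the family value was 87.1%. The difference rested on the first segment, which was 0.297 in TRAMPC1 (3091692 to 33637372) and 0.31 in TRAMPC2 (3091692 to 33393750). Neither array had a step of 0.3 or more. By medians, TRAMPC2 was higher by 0.05 over the chromosome, by 0.01 in the proximal part and by 0.08 in the distal part. With normexp the order over the chromosome was reversed, with medians of 0.46 in TRAMPC1 and 0.10 in TRAMPC2. With 1 array each these differences have no test.

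Renca, the kidney line, had 49.0% of its chromosome 15 probes gained (6.94% elsewhere), in a high block at each end. The first 10.6 Mb, from 3091692 to 13646427, stood at 1.27 ± 0.0084 (SE over 984 probes), a ratio of 2.42. After a short segment at 0.95 the level dropped to -0.07 from 14751753 to 24224877 and stayed between -0.05 and 0.26 up to 76075840. It then rose to 0.67 from 76080002, and ran at 0.63 from 77374316 to 89296074. A gap from 91886784 to 93419595 at 0.07 divided this from the last 10.1 Mb at 0.63. The proximal block of Renca was the highest level of any segment of more than 40 probes in the region.

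In 4T1, the breast line, 39.95% of the chromosome 15 probes were gained (7.88% elsewhere) and 3.37% were lost. Its 8 gained segments of at least 20 probes that lay wholly outside the window ran from 0.34 to 1.73, and the 10 others from -0.30 to 0.14. The first block, 3091692 to 12896661, stood at 0.48, and a further block from 30181337 to 44822182 at 0.53. Nearer to the left-out window, 54956956 to 58364258 stood at 1.08 ± 0.019 (SE over 332 probes) and 58705070 to 58943103 at 1.73 ± 0.058 (SE over 36 probes), the highest segment of the line here. Beyond the window, probes up to 69216077 had a mean of 0.97. Short gains followed from 72185390 to 73372239 at 0.86, from 75769905 to 75847599 at 0.995, from 78593656 to 79146578 at 1.07 and from 79300111 to 79498681 at 0.93. The last 23.98 Mb, from 79502573, lay at -0.294 ± 0.0074 (SE over 2937 probes). This segment fell just short of the loss threshold of -0.3, so its probes are not in the lost share of 3.37%. The median of the whole chromosome, 0.09, thus joins stretches far above and far below it.

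EL4, a lymphoma line, had 43.4% of its chromosome 15 probes gained (2.82% elsewhere). Its 7 gained segments were alike, between 0.51 and 0.62, and its 7 other segments of at least 20 probes wholly outside the window lay between -0.28 and 0.29. The chromosome was raised from 3091692 to 43268870, with a dip to 0.29 from 13141501 to 24970952. It lay at -0.28 from 43286580 to 57550144 and near 0 from 74643556 to 86559820, outside a short low segment. Gained pieces returned from 74549397 to 74637231 at 0.62, from 88200886 to 88634512 at 0.58, from 93363241 to 97521232 at 0.53, from 98393102 to 99529685 at 0.61 and from 99573918 to the end at 0.59. Between the last of these, 10 probes from 99533691 to 99569048 lay at -0.43. The lowest segment, 80732245 to 80832570, stood at -1.16 ± 0.062 (SE over 15 probes), while the other 15 arrays lay between -0.28 and 0.72 there.

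MC38 had 11.1% of its chromosome 15 probes gained (19.5% elsewhere), a lower share than on its other autosomes. The gain comprised the first segments, 3091692 to 8366991 at 0.51 and 8371398 to 13502287 at 0.31. The rest lay between 0.004 and 0.28, except for a narrow deletion. From 47783948 to 48134653 the mean was -1.84 ± 0.084 (SE over 17 probes), a ratio of 0.278, and no probe was too dim to measure. The other 15 arrays lay between -0.45 and 0.46 over the same probes, so MC38 did not overlap them. No other array had a segment of this depth outside the strain-linked stretch at 77 Mb described below.

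The 4 B16 arrays had the same layout at different levels. The chromosome was low from 3091692 to about 33.6 Mb and higher beyond. The first stretch stood at -0.09 in B16F0 ATCC and -0.05 in B16F10 ATCC, at -0.03 and then -0.16 in B16F10 NCI, and at -0.34 and then -0.46 in B16F0 ECAC. Beyond it, B16F0 ATCC rose to 0.30 and 0.43, B16F10 NCI to 0.29 and 0.39, and B16F10 ATCC to 0.28, while B16F0 ECAC stayed between -0.21 and 0.14 apart from 1 short segment. Gained shares were 74.1% in B16F0 ATCC, 40.9% in B16F10 NCI and 0% in B16F10 ATCC and B16F0 ECAC, against 15.7%, 16.2%, 14.3% and 13.5% of the probes on their other autosomes. The call for 1 segment of B16F0 ATCC depended on the left-out window, since its mean was 0.30 with those probes and 0.29 without them. B16F0 ECAC alone had 25.9% of its probes in segments at or below -0.3. Pairs of B16 or TRAMPC arrays had similar profiles, with correlations of 0.95 to 0.98 over 96 bins in 7 pairs, against a median of 0.38 over 113 pairs of different families. These pairs share a tumour of origin, and all pairs share the reference and the probes.

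B16F10, the subline of B16F0 selected for spread to the lung, overlapped with it here. The chromosome 15 median was 0.21 on average in B16F10 and 0.10 in B16F0, a difference of 0.12 (exact permutation p = 1, where 2 arrays against 2 cannot go below 0.33). Of the 4 arrays, B16F0 ATCC was the highest and B16F0 ECAC the lowest. Without B16F0 ECAC the difference was -0.02.

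LL2 and P815 had no gained segment outside the window (6.97% and 12.5% elsewhere). LL2 was raised below the threshold on both sides of the window, at 0.21 ± 0.0056 before the window (SE over 4304 probes) and 0.29 ± 0.0064 after it (SE over 4527 probes). P815 was a single segment from 3091692 to 103482674 with a mean of -0.09, and it was the only family below 0.

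Breakpoints, taken as steps of at least 0.3 between neighbouring segments, were unevenly spread over the lines. There were 48 among 86 segment boundaries, and 37 of them were in 4T1 (18), EL4 (12) and Renca (7). B16F0 ECAC had 4, CT26 and MC38 had 2 each and the other B16 arrays 1 each. The families LL2, P815, Hepa1-6, PAN02, TRAMPC and ID8 had none, that is 6 of 12 families and 7 of 16 arrays. The pair in CT26 bounds the strain-linked stretch at 77 Mb, and so do 2 each in 4T1 and Renca. The pair in MC38 bounds its deletion.

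The B16 breakpoint was placed between the same probes, 33637372 and 33667103, in B16F0 ATCC, B16F10 NCI and B16F10 ATCC, and 1 gap earlier, between 33621505 and 33637313, in B16F0 ECAC. Medians of 5 Mb on either side differed by 0.44 to 0.55 in the 4 B16 arrays. The other 12 arrays also rose at this place, by 0.07 to 0.22, and TRAMPC1 had a boundary in the same gap with a step of 0.13. The place was chosen from the B16 arrays, so the 2 ranges are a description. Of the 86 boundaries, 26 lay within 50 kb of one in another family, comprising 12 of the 48 breakpoints and 14 of the 38 smaller steps. The 12 include the edges of the strain-linked stretch in CT26, 4T1 and Renca. They also include the B16 breakpoint above, counted once per B16 array against the smaller step of TRAMPC1. The share expected by chance was not computed. Hepa1-6 shared the gap after 13027296 with B16F0 ECAC and B16F10 NCI, and the gap after 24224877 with MC38 and Renca. ID8 shared the gap after 47767230, where the MC38 deletion begins, and the gap after 72326340 with TRAMPC2. MC38 and B16F0 ECAC shared that after 74823319. Whether such shared places come from the lines or from probes that all arrays have in common was not tested.

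The ends of the chromosome were compared next. The proximal part had a mean over families of 0.43 ± 0.36 and the distal part 0.29 ± 0.26 (SD, n = 12), and each was above 0 in 10 of 12 families. The proximal part was highest in Renca (1.28), ID8 (0.77), EL4 (0.50) and 4T1 (0.47), and lowest in B16 (-0.11) and P815 (-0.03). The distal part was highest in ID8 (0.63), Renca (0.62) and CT26 (0.52), and lowest in 4T1 (-0.27) and P815 (-0.02). Proximal minus distal was 0.14 ± 0.32 (SD, n = 12), positive in 7 of 12 families, and did not pass the test (two-sided exact sign-flip permutation test, p = 0.17, adjusted p = 0.29). With Hepa1-6 and PAN02 as 1 family it was 0.14, positive in 6 of 11 families (exact p = 0.21). The difference was 0.20 within the first scan batch and 0.0052 within the second.

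Single families differed widely, and in both directions. 4T1 (0.74), Renca (0.66) and EL4 (0.33) were higher at the proximal end. B16 was higher at the distal end (-0.40), in each of its 4 arrays, at -0.43 and -0.44 in the B16F0 arrays of ECAC and ATCC and -0.42 and -0.30 in the B16F10 arrays of NCI and ATCC. MC38 (0.15), Hepa1-6 (0.16), ID8 (0.14) and PAN02 (0.12) had smaller positive values. TRAMPC (-0.12), CT26 (-0.08) and LL2 (-0.06) had small negative ones, and P815 was level (-0.01). The standard errors of the mean over probes were at most 0.014 in the proximal and 0.010 in the distal part of any array. They treat probes as independent and do not cover shifts that neighbouring probes share, such as the dip described below. They are therefore no measure of how sure these differences are.

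**Figure D3:**
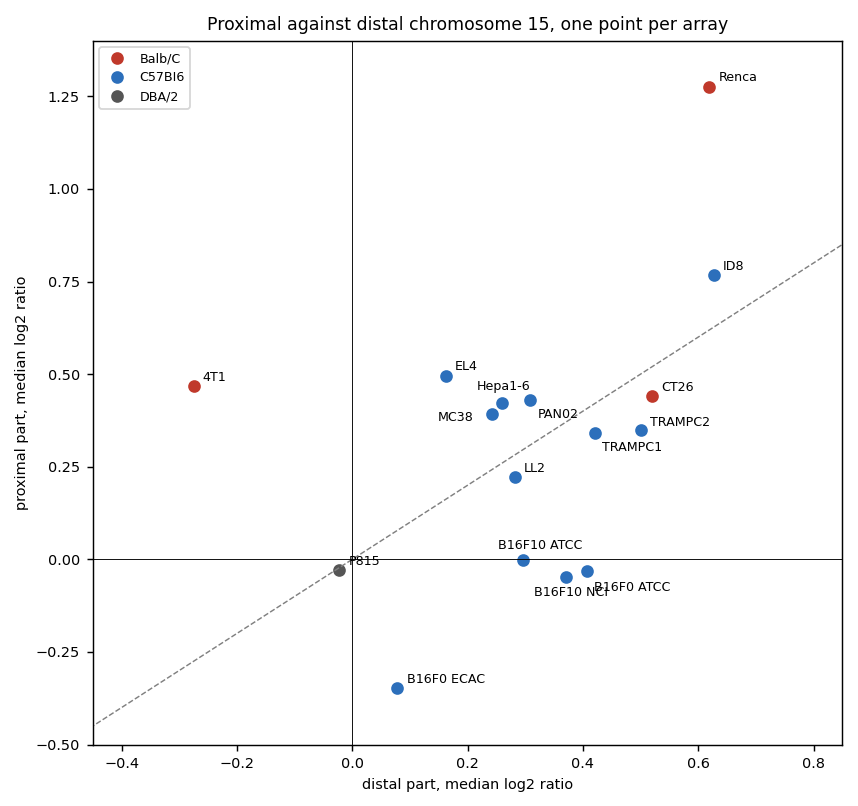
Median log2 ratio of the proximal part (vertical) against the distal part (horizontal) of chromosome 15, with 1 point per array coloured by strain; the dashed line marks equal levels. Renca and 4T1 lie far above the line, with proximal minus distal of 0.66 and 0.74, and the 4 B16 arrays lie below it.

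The left-out window did not divide the chromosome into a high and a low side. Probes before 59 Mb had a mean over families of 0.28 ± 0.20 and those after 64 Mb 0.28 ± 0.24 (SD, n = 12). The difference was 0.0032 ± 0.24 (SD, n = 12; two-sided exact sign-flip permutation p = 0.97, adjusted p = 0.97), positive in 5 of 12 families. It was 0.53 in 4T1 and 0.30 in EL4, and -0.33 in Renca and -0.27 in B16, so the mean near 0 joins opposite values. In each scan batch alone it was -0.0055 and -0.03. The levels inside the window are not described here.

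A dip from 13 to 24 Mb appeared in all 12 families. The median there was lower than that from 3 to 13 Mb by 0.16 to 1.32 (median 0.23), and lower than that from 24 to 34 Mb by 0.11 to 0.46 (median 0.17). In P815, which had no segment boundary, the 3 medians were -0.03, -0.28 and -0.15. In ID8 they were 0.77, 0.54 and 0.66, in LL2 0.22, 0.03 and 0.18, and in Renca 1.28, -0.04 and 0.12. The windows were chosen after the values were seen, so no test is given. Probe density changed along with the level, at 95.2, 50.9 and 78.7 probes per Mb in the 3 blocks and 121 in the distal part. Across the 96 bins the correlation of probe count with bin median ran from -0.10 in Hepa1-6 to 0.70 in TRAMPC2. What part density or the shared reference has in the dip was not tested. The values of the proximal part stand beside this dip and are not corrected for it.

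**Figure D4:**
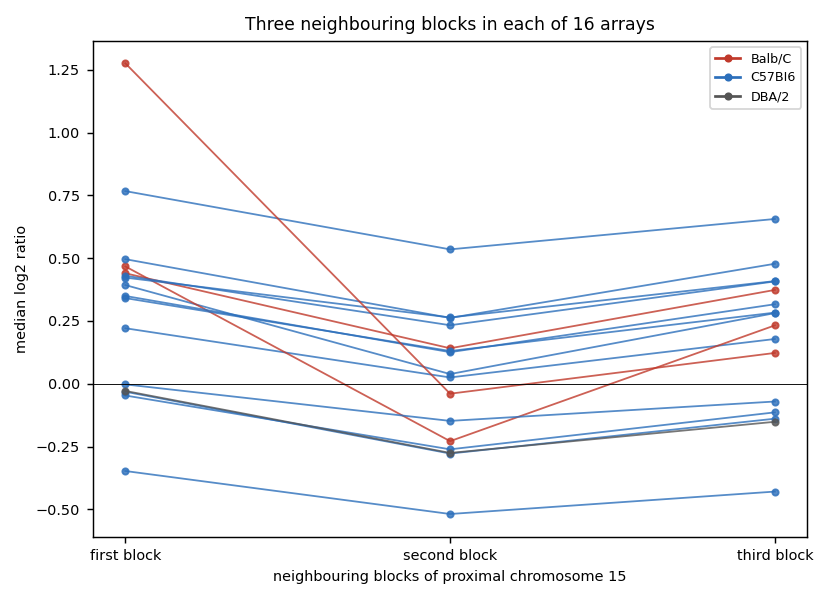
Median log2 ratio of the blocks at 3 to 13, 13 to 24 and 24 to 34 Mb of chromosome 15 (horizontal, in that order), with 1 line per array coloured by strain. Each of the 16 arrays is lowest in the middle block.

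By strain, the chromosome as a whole did not separate the lines. The 3 Balb/C families averaged 0.30 ± 0.19 and the 8 C57BI6 families 0.32 ± 0.16 (SD), a difference of -0.02 (two-sided exact permutation p = 0.88, adjusted p = 0.97), and the single lines overlapped throughout. Within the first scan batch, which holds all Balb/C lines, it was -0.10 (exact p = 0.60). The proximal part averaged 0.73 ± 0.48 in Balb/C (n = 3) and 0.37 ± 0.25 in C57BI6 (n = 8; exact permutation p = 0.16, adjusted p = 0.55 over 7 measures). Proximal minus distal was 0.44 ± 0.45 against 0.04 ± 0.22 (exact permutation p = 0.085, adjusted p = 0.55). In the proximal part Renca stood at 1.28, against 0.47 in 4T1 and 0.44 in CT26. Proximal minus distal was 0.74 in 4T1 and 0.66 in Renca, against -0.08 in CT26.

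Single probes did differ between strains, but no more often here than elsewhere. Of 8816 chromosome 15 probes in the limma fit, 99 passed at an adjusted p of 0.05, which is 1.12%, against 2.34% of all 220255 autosomal probes. Lower in Balb/C were 87 (0.987%, against 1.98% of all) and higher were 12 (0.136%, against 0.36%). Without 4T1 the count was 62, and with the scan batch as a block it was 52. Only neighbouring probes called in the same direction are named, and these formed 6 runs, all lower in Balb/C, of 2 or 3 probes each.

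The 3 strongest runs lay close together, from 77304404 to 77374375. At 77340753 to 77350888 the Balb/C mean was -3.36 ± 0.48 (SD, n = 3) and the C57BI6 mean 1.04 ± 0.27 (SD, n = 8). CT26 stood at -3.08, 4T1 at -3.92 and Renca at -3.09, while the C57BI6 families lay between 0.55 and 1.39 and P815 at 0.87. Some Balb/C signals were not well above background, so the fold is a lower bound, computed against the lowest signal well above background on the array: Balb/C was at least 13.9-fold lower. The runs at 77367530 to 77374375 and 77304404 to 77313984 were at least 6.07-fold and at least 3.52-fold lower, and P815 was again like C57BI6. At 1 of the 2 probes of the run from 77367530 the reference was also dim on some array. The stretch was low in the Balb/C tumours of colon, breast and kidney and in no C57BI6 line. Its runs were picked by the strain fit, so this division is part of the choice. The change point search, run without strain labels, also placed a low segment there in CT26, 4T1 and Renca. That search used the same values of the same arrays, so it is no separate support for the division. The cause was not tested.

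The other 3 runs were shallower. At 100186586 to 100189877 Balb/C was 2.81-fold lower (-0.65 ± 0.47 against 0.84 ± 0.22, SD, n = 3 and 8). The reference was not well above background at 1 of its 2 probes on some array, so this fold is less sure than the other two. At 74764987 to 74775662 it was 2.38-fold lower (-0.02 ± 0.49 against 1.23 ± 0.29). At 49336723 to 49379901 it was 1.82-fold lower (-0.05 ± 0.19 against 0.81 ± 0.26), and here P815 lay at -0.16, with Balb/C. In each of the 6 runs the Balb/C lines and the C57BI6 families did not overlap, as the choice of called probes makes likely. The largest adjusted p of a probe in these shallower runs was 0.036 (limma).

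The genes that these levels cover can be given only by name and order, since the deposited probes carry positions without gene names, and the available gene table refers to another build, GRCm38. That table places 776 protein-coding genes on chromosome 15. All 30 genes of a list of receptors, signalling, surface, chromatin and keratin genes lie there, 11 before Myc and 19 after it. Before Myc lie the receptors Ghr (growth hormone), Prlr (prolactin), Il7r (interleukin 7, needed for lymphocyte growth), Lifr and Osmr (cytokines of the interleukin 6 family) and Ptger4 (prostaglandin E2), and Rad21, a subunit of the cohesin ring that holds sister chromatids together. After Myc lie Il2rb and Csf2rb, receptor chains for interleukin 2 and for granulocyte-macrophage factor. The same side holds Pdgfb, a growth factor, Wnt1, a signalling ligand, Ep300, a histone acetyltransferase, Apobec3, an antiviral deaminase, and the keratins Krt5, Krt8 and Krt18. In ID8, PAN02 and TRAMPC2, in which all probes outside the window lay in gained segments, both groups of genes fall within raised DNA by these calls. With normexp the chromosome medians of these 3 arrays were 0.28, 0.09 and 0.10, each under the gain threshold. For the other lines no gene is assigned to a segment.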

How the data were processed

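Genomic DNA of 16 lines was measured on 1 two-colour array each. The spot intensity values were made by the authors in Agilent Feature Extraction, per the submitters' processing notes; the file headers give version 10.7.3.1. They were background-subtracted and dye-scaled. The deposited log10 ratio per spot and the deposited log2 value table gave the same ratio as the processed signals, to a log2 tolerance of 0.001 in 99.9% of spots or more. Flags of spots are 0 or 1 in the deposited files. Positions are mm8 per the file headers.

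From these, log2 of processed red over green was computed, control and outlier-flagged spots were left out, repeat spots averaged, and each array centred on its autosomal median, with no loess or quantile step. Segments came from an exact change point search (squared error, penalty factor 6, at least 5 probes, probes limited to 3 noise SDs about a running median of 5), over each whole chromosome, window included. A gained segment that crosses the window counts with its probes outside it. Family values were tested by exact sign-flip permutation, strain by exact permutation (scipy 1.17.1) and single probes by limma 3.58.1 (R 4.3.3) with Benjamini-Hochberg adjustment. The p-values of these tests measure the spread between lines. The sign-flip code, the limma fit and the change point search were tested on simulated data.

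Named items were every breakpoint by line count, the highest and lowest segment of each family, and runs of at least 2 neighbouring probes called by the strain fit, with positions for those the text turns on. The planned gene values were not computed, since no mm8 gene positions were used here. The region, windows and lists were chosen with earlier results of these data known. Alternatives were mode centring, normexp (offset 50, run on the median spot and background signals in place of the planned mean signals, which are not used here), probes bright in the reference, a trimmed mean, the window kept in, other thresholds, a doubled penalty, scan batch, Hepa1-6 with PAN02 as 1 family, and each family left out. The number of arrays limits the precision.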

Additional observations from a re-analysis of the deposited data

Results flagged for a closer look

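Within the 4 B16 arrays, 4 values stood apart from the other three by Dixon's criterion, among 12 such comparisons made, of which chance gives about 1 in 20. B16F0 ECAC was low, with a chromosome 15 median of -0.04 where the others lay between 0.20 and 0.23. Before 59 Mb it stood at -0.21 (others 0.06 to 0.10), and in the proximal part at -0.35 (others -0.05 to -0.0025). These values of B16F0 ECAC share probes of 1 array. They are not independent, so the count of 4 cannot be set against the rate of 1 in 20. B16F10 ATCC had the smallest excess of the distal over the proximal part, at -0.30, where the others lay between -0.42 and -0.44. The 2 B16 arrays with these values were both in the second scan batch, as was B16F0 ATCC; causes were not tested.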

How the results depend on the processing

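The chromosome 15 level and its excess over other autosomes stayed positive under all alternatives run, at 0.21 to 0.36 and 0.22 to 0.37. They lost the call only within the first scan batch (0.36 and 0.37) and within the second (0.21 and 0.22), the latter chosen after seeing the data. Leaving out a family gave 0.25 to 0.32 and 0.27 to 0.33. Normexp lowered some arrays, with PAN02 at 0.09, TRAMPC2 at 0.10 and ID8 at 0.28. It raised others, with Renca at 0.49 and TRAMPC1 at 0.46. Mode centring lowered Renca from 0.39 to 0.27, LL2 from 0.23 to 0.22 and EL4 from 0.20 to 0.18, and raised the other arrays. The level of Renca and its place in the order thus depend on the centring. Whole gains numbered 2 with normexp, 1 at a threshold of 0.5, 6 at 0.2 and 5 with mode centring, and partial gains 5 to 7. With normexp ID8 was no longer the highest family. Proximal minus distal stayed positive (0.0052 to 0.20, leaving out a family 0.08 to 0.19) and never passed. The difference before minus after the window, near 0, changed sign with Hepa1-6 and PAN02 as 1 family (-0.0052), in the first scan batch (-0.0055) and in the second (-0.03), and ran from -0.0445 to 0.034 over families left out. The strain difference in level changed sign with normexp (0.069) and ran from -0.082 to 0.0935 over families left out; no setting passed. The count of strain probes was 32 with normexp, of which 29 were shared, 52 with the scan batch as a block, 59 in the first batch, and 62 without 4T1 to 109 without EL4. B16F10 minus B16F0 ran from -0.020 to 0.25 over arrays left out, with no test. No paired analysis was possible because replicate numbers only count sublines within a family. The cause of each change was not tested.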

Other observations

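A stretch of 5 probes from 87435318 to 87461949 of chromosome 15 divided the arrays, also within B16. It was low in P815 (-1.49 ± 0.37), B16F10 ATCC (-1.10 ± 0.29), B16F0 ECAC (-1.04 ± 0.23), 4T1 (-0.99 ± 0.12) and EL4 (-0.93 ± 0.04), with SE over probes, and each probe was bright enough to measure. LL2 stood at -0.40 and MC38 at -0.22, and the other 9 arrays lay between -0.08 and 0.34. B16F0 ATCC (-0.06) and B16F10 NCI (0.11) therefore differed from the other B16 arrays there, and the division followed neither the strain nor the B16F0 and B16F10 labels. The stretch was picked after its values were seen, only in B16F0 ECAC was it a segment of its own, and it has no test.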
